A study of Homo sapiens with 6 samples.

Results

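The genes described here are 38 genes of protein folding and quality control in the endoplasmic reticulum, with the sensors of the unfolded protein response, followed in a human cell line with and without RNA interference against MOCS2. They were chosen by name, as reticulum chaperones, disulfide isomerases, stress sensors and degradation factors, and all 38 were found among the 60675 gene rows of the count table. The 3 libraries labelled MOCS2 RNAi knockdown and the 3 labelled control were made from total RNA of HEK293, an established line of embryonic kidney origin. Both groups were grown in high-glucose DMEM with fetal bovine serum and Geneticin, and the labels give the controls as wild type in genotype. The sources used here give neither the RNAi construct nor the number of clones, and it is not stated whether replicates came from separate cultures, and p-values therefore describe the scatter of these libraries, possibly only technical. MOCS2 encodes both subunits of molybdopterin synthase, which makes the molybdenum cofactor precursor molybdopterin.

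Proteins that enter the secretory pathway are folded in the reticulum by HSP70 and HSP90 family chaperones, by lectin chaperones that hold glycoproteins, and by isomerases that form and rearrange disulfide bonds. When unfolded proteins accumulate, the sensors IRE1 (the product of ERN1), ATF6 and PERK (the product of EIF2AK3) signal to the nucleus. IRE1 splices XBP1 RNA, ATF6 is released by cleavage in the Golgi, and PERK raises translation of ATF4. Targets of XBP1 and ATF6 include many of the chaperones and degradation factors described here.

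A promoter element read by ATF6 together with NF-Y is a sequence feature found in some of these genes, and it was used neither to choose them nor in the counts. RefSeq promoters (GRCh38.p14, 250 bases before to 50 after each annotated start) were given for 34 of the 38 members. The element ERSE, searched as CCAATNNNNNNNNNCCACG on both strands, was found in 8 of these 34 members (23.5%), against 25 of 27305 genes in the whole promoter table (0.0916%). The related element ERSE-II, searched as ATTGGNCCACG, was found in 3 members (8.82%), against 0.0696% of genes, and the XBP1 and ATF6 core TGACGTGG in 2 members (5.88%), against 0.927% of genes. A match describes letters only, and a window without one says nothing about the factor. Since many members are known targets of ATF6 and XBP1, these shares describe the list and test nothing. The matches are printed below because they can be set beside the expression of each gene, with the fixed letters in capitals and the spacer in lower case, read along the strand that carries the element.
HSPA5 (chr9:125241391-125241409, minus strand): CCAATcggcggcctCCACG
HSP90B1 (chr12:103930216-103930234, plus strand): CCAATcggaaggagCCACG
HSP90B1 (chr12:103930321-103930339, minus strand): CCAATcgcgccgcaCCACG
CALR (chr19:12938384-12938402, minus strand): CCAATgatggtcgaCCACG
CANX (chr5:179698778-179698796, plus strand): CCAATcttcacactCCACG
CRELD2 (chr22:49918554-49918572, minus strand): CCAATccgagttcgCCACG
PDIA6 (chr2:10812853-10812871, minus strand): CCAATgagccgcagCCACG
ERO1B (chr1:236282183-236282201, plus strand): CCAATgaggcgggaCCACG
XBP1 (chr22:28800603-28800621, minus strand): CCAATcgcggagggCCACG
HERPUD1, ERSE-II (chr16:56932025-56932035, plus strand): ATTGGgCCACG
HYOU1, ERSE-II (chr11:119057274-119057284, plus strand): ATTGGaCCACG
HYOU1, ERSE-II (chr11:119057380-119057390, plus strand): ATTGGaCCACG
SDF2L1, ERSE-II (chr22:21642114-21642124, minus strand): ATTGGtCCACG

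The upstream ERSE-II match of HYOU1 overlaps a match to the core (chr11:119057386-119057393), and the other match to the core lay in DNAJC10 (chr2:182716132-182716139). CANX and PDIA6 also have a window without a match (chr5:179698177-179698476 and chr2:10832436-10832735). The 200 bases before an annotated start are shown for 3 of these genes, picked because their values lay differently against the controls. Differences between the 3 genes were not tested. HSP90B1 was lower in every library labelled knockdown than in every control. With TMM factors XBP1 was higher in each of them than in every control, and HSPA5 lay on both sides of the controls. For XBP1 the start with the match is shown, and its other window (chr22:28800028-28800327) held no ERSE. Each stretch is written along the gene. Capitals mark the fixed letters of ERSE, which read as CGTGG and ATTGG where the element lies on the other strand.
HSPA5 (chr9:125241344-125241543, minus strand): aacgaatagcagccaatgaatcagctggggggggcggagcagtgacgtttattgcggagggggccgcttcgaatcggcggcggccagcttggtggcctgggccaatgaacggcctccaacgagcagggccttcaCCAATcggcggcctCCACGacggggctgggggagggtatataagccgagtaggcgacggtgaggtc
HSP90B1 (chr12:103930210-103930409, plus strand): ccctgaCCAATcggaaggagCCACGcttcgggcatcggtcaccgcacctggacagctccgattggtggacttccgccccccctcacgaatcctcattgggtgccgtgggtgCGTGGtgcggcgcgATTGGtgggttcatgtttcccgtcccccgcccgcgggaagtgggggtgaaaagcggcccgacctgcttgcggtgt
XBP1 (chr22:28800570-28800769, minus strand): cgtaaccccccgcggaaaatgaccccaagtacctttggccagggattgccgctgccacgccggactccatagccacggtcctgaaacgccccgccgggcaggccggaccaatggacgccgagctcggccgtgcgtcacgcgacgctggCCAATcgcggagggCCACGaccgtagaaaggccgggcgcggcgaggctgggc

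Reads assigned to genes numbered 17958632 to 19362299 in the libraries labelled knockdown and 19895547 to 22171106 in the controls, and members had from 160 reads (DERL3) to 37667 reads (CANX) in a library. Levels are given as CPM, reads scaled to a common library size with TMM factors. In the libraries labelled knockdown MOCS2 itself had 69.8, 58.9 and 59.9 CPM, against 57.8, 66.6 and 65.6 CPM in the controls (log2 fold change -0.01, edgeR adjusted p = 0.976). The RNA thus goes against the label, and every direction below is that of the libraries labelled knockdown. Of 8 HEK293 markers, 8 averaged at least 1 CPM, and summed markers of blood cells, endothelium, hepatocytes and plasma cells stayed at or below 1.28 CPM in every library. Of 4 fibroblast markers, 2 averaged at least 1 CPM, and their sum was 8.26 to 16.4 CPM in the libraries labelled knockdown, highest in knockdown 2, and 8.31 to 12.5 CPM in the controls. Their part in the results was not tested. Reads outside genes made up 37.5% of uniquely aligned reads in knockdown 2, against 21.5% to 25.0% in the other 5 libraries. The knockdown libraries also lay farther apart than the controls, with a median SD of log2 CPM over members of 0.210 in the libraries labelled knockdown and 0.0905 in the controls. Over all genes tested the median SD was 0.311 and 0.161, so the wider spread is not particular to the members.

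In bulk RNA, fewer cells of a kind and less RNA per cell cannot be told apart. Summed as a group, the members were lower in the libraries labelled knockdown, while XBP1, ATF6 and 3 of 4 J-domain cochaperones had positive log2 fold changes. The 38 members together held 6697, 7317 and 7366 CPM in the libraries labelled knockdown, and 7868, 8384 and 8232 CPM in the controls. All 3 knockdown sums lay below all 3 control sums, and their ratio was 0.873. CANX, HSP90B1, CALR and P4HB, the 4 most abundant members by CPM, held 54.4% of the control sum. The ratio therefore does not describe each of the 38 members. CALR, HSP90B1, CANX and P4HB headed the members per unit of transcript length in the controls, at 842 ± 126, 574 ± 102, 792 ± 61.2 and 277 ± 39.9 TPM in the libraries labelled knockdown and 1100.3 ± 95.8, 839.9 ± 124, 824 ± 99.5 and 351 ± 29.2 TPM in the controls (SD, n = 3 each, TPM from exonic length and not scaled by TMM). ERN1, at 5.08 ± 0.938 TPM in the libraries labelled knockdown and 4.41 ± 0.319 TPM in the controls, had the lowest level of all 38 in both groups.

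No member passed the test over all genes. With edgeR's quasi-likelihood test, Benjamini-Hochberg adjusted over 18267 genes, 0 of 38 members were higher and 0 lower at the 0.05 level, as were 0% of all genes. By unadjusted p under 0.05, 8 members were lower (21.1%) and 0 higher, against 10.6% of all genes lower, 9.93% higher and 20.5% in either direction. Among genes at least as abundant as the least abundant member these shares were 11.6% lower and 10.7% higher. DESeq2 called 2 members lower at its adjusted p of 0.05 (5.26%), against 3.55% of genes, and 0 higher, against 3.39% (6.94% in either direction), and limma voom called 0. Of the log2 fold changes, 25 were negative (48.2% of all genes) and 13 positive (51.8% of all genes), with a median of -0.16 over members and 0.02 over all genes. The 3 knockdown values lay below all 3 control values in 11 members (28.9%), against 14.3% of genes, and above them in 2 (5.26%), against 12.5% of genes, or 26.8% in either direction. The members' median stood at -0.14 in each of the 3 libraries labelled knockdown, relative to the control mean, although the members behind it differed from library to library.

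**Figure D1:**
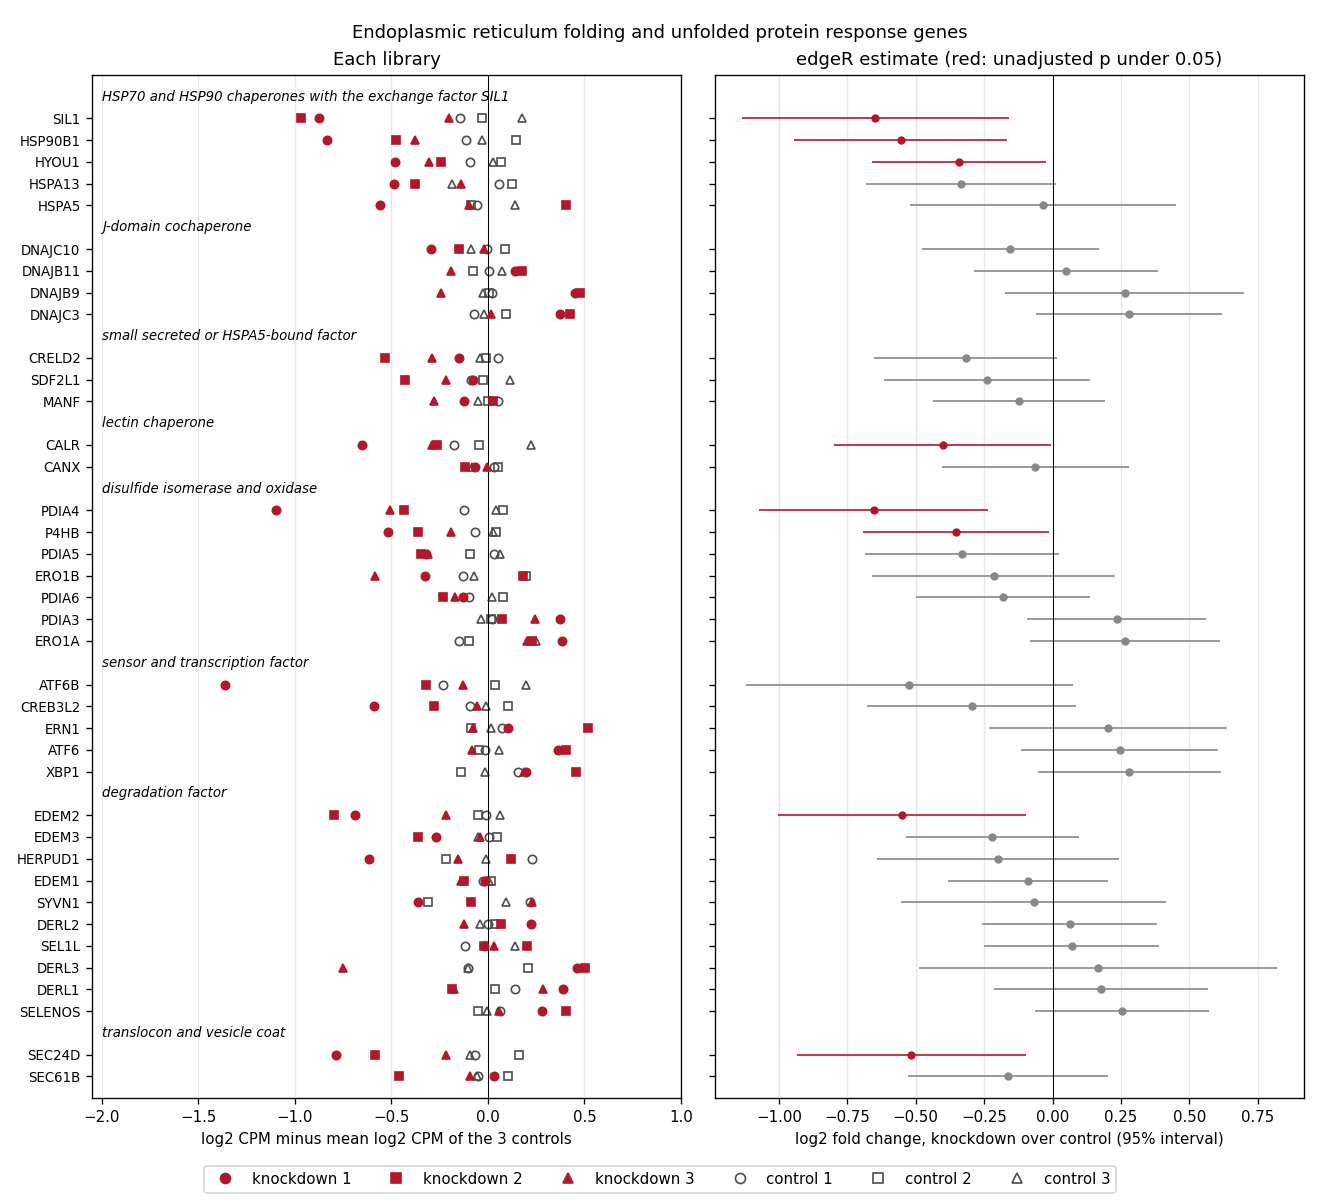
Left, log2 CPM of each of the 38 members in each library minus the mean of the 3 controls (filled red symbols, libraries labelled knockdown; open symbols, controls), grouped by role. Right, the edgeR log2 fold change with its 95% interval, in red where the unadjusted p is under 0.05. The 8 red members all lie to the left of 0, and knockdown 1 and 2 lie to the right of the controls for DNAJB9, DNAJC3, ATF6 and SELENOS while knockdown 3 does not.

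The 4 HSP70 and HSP90 family chaperones and SIL1, an exchange factor of neither family, all had negative log2 fold changes (median of the 5, -0.34). HSP90B1, HYOU1 and SIL1 had an unadjusted p under 0.05. HSP90B1, the reticulum HSP90 known as GRP94, had 702, 899 and 962 CPM in the libraries labelled knockdown and 1157, 1384 and 1224 CPM in the controls. The groups did not overlap, and knockdown 1 was the lowest. Its log2 fold change was -0.56 with a standard error of 0.18 (edgeR unadjusted p = 0.00963, adjusted p = 0.134, DESeq2 adjusted p = 0.0423), a fold of 0.681 with a 95% interval of 0.519 to 0.892. HYOU1, which exchanges nucleotide on the chaperone HSPA5, had 171, 201 and 193 CPM in the libraries labelled knockdown and 224, 250.0 and 243 CPM in the controls. Its groups again did not overlap (log2 fold change -0.34, standard error 0.14, edgeR unadjusted p = 0.0379, adjusted p = 0.219). An antisense gene on the opposite strand shares 8.66% of the exonic length of HYOU1. SIL1, which also exchanges nucleotide on HSPA5, had 14.8, 13.9 and 23.6 CPM in the libraries labelled knockdown and 24.6, 26.6 and 30.7 CPM in the controls. Knockdown 1 and 2 stood well below every control, and knockdown 3 just under the lowest one (log2 fold change -0.65, standard error 0.22, edgeR unadjusted p = 0.0141, adjusted p = 0.149).

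HSPA5, the chaperone also called BiP and the classical readout of the unfolded protein response, went both ways. It had 125, 244 and 173 CPM in knockdown 1, 2 and 3, and 178, 174 and 204 CPM in the controls. Knockdown 1 was under every control, knockdown 2 above every one and knockdown 3 just under the lowest, so the means of 181 ± 59.9 and 185 ± 16.2 CPM (SD, n = 3 each) hide a wide spread. The log2 fold change was -0.03 with a 95% interval from -0.52 to 0.45 (edgeR adjusted p = 0.946), and it was 0.17 without knockdown 1 and -0.32 without knockdown 2. Knockdown 2 is also the library with the larger share of reads outside genes, whose part in this value was not tested. HSPA13, a less studied HSP70 relative of the reticulum, had 129, 139.7 and 164 CPM in the libraries labelled knockdown and 189, 198 and 159 CPM in the controls, with overlap through knockdown 3 and control 3.

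**Figure D2:**
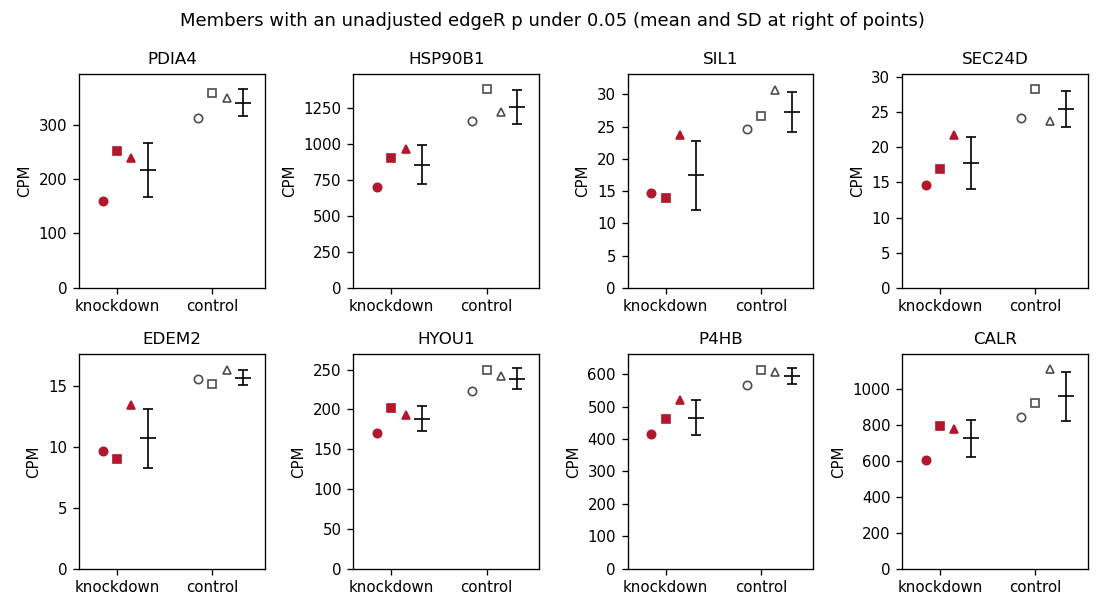
CPM in each library for the 8 members with an unadjusted edgeR p under 0.05 (red, libraries labelled knockdown; open grey, controls; circles, squares and triangles, replicates 1, 2 and 3; bars, mean and SD over 3 libraries). In all 8 panels the 3 red points lie below the 3 open ones, and for PDIA4 knockdown 1 stands at 159 CPM.

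The lectin chaperones CALR and CANX, which hold glycoproteins while they fold, were not alike in size. Soluble CALR (calreticulin) had 606, 793 and 777 CPM in the libraries labelled knockdown and 842, 922 and 1111 CPM in the controls, without overlap (log2 fold change -0.40, standard error 0.18, edgeR unadjusted p = 0.0474, adjusted p = 0.239). An antisense gene on the opposite strand shares 9.95% of its exonic length. Membrane-bound CANX (calnexin) had 1563, 1508 and 1629 CPM in the libraries labelled knockdown and 1669.7, 1692 and 1546 CPM in the controls, which overlap. Its log2 fold change was -0.06 (95% interval -0.40 to 0.28), and the difference between both genes was not tested. Each carries an ERSE match.

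Among the disulfide isomerases and oxidases, 5 of 7 were negative and 2 of them had an unadjusted p under 0.05. PDIA4, the isomerase ERp72, had 159, 252 and 239 CPM in the libraries labelled knockdown and 313, 359 and 351 CPM in the controls. All 3 knockdown values lay well below the lowest control, and this was the smallest p of any member (log2 fold change -0.65, standard error 0.19, edgeR unadjusted p = 0.00572, adjusted p = 0.116, DESeq2 adjusted p = 0.0312). P4HB, the founding protein disulfide isomerase and a subunit of collagen prolyl hydroxylase, had 414, 462 and 521 CPM in the libraries labelled knockdown and 566, 612 and 606 CPM in the controls. Its groups did not overlap (log2 fold change -0.35, standard error 0.15, edgeR unadjusted p = 0.0438, adjusted p = 0.231). An antisense gene on the opposite strand shares 9.975% of the exonic length of P4HB.

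PDIA5, an isomerase, had 15.8, 15.6 and 15.9 CPM in the libraries labelled knockdown and 20.2, 18.6 and 20.7 CPM in the controls, without overlap (log2 fold change -0.33, edgeR unadjusted p = 0.0647, adjusted p = 0.271), and it shares 12.2% of its exonic length with SEC22A on the same strand. PDIA6 averaged 402 ± 14.9 CPM in the libraries labelled knockdown and 455 ± 27.5 CPM in the controls, without overlap, and 25.2% of its exonic length is shared with ATP6V1C2 on the opposite strand. The isomerase PDIA3, which works with both lectin chaperones, went the other way, with 411, 334 and 376 CPM in the libraries labelled knockdown and 323, 321 and 309.7 CPM in the controls. Its groups did not overlap, but knockdown 2 stood close to the controls, and 14.8% of its exonic length is shared with ELL3 on the opposite strand (log2 fold change 0.23, edgeR unadjusted p = 0.142, adjusted p = 0.391). The oxidases that feed disulfides to these enzymes differed in sign, ERO1A at a log2 fold change of 0.26 and ERO1B at -0.22, and both overlapped between groups. ERO1B stood at -0.47 without knockdown 2 and -0.064 without knockdown 3.

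The J-domain cochaperones, which hand clients to HSPA5, were positive in 3 of 4. DNAJB9, a textbook XBP1 target that restrains IRE1, had 41.5, 42.1 and 25.5 CPM in knockdown 1, 2 and 3, and 30.7, 30.4 and 29.8 CPM in the controls. Knockdown 1 and 2 were above every control and knockdown 3 below every one (log2 fold change 0.26, 95% interval -0.17 to 0.70, edgeR adjusted p = 0.471). DNAJC3, an inhibitor of PERK, had 112, 116 and 87.6 CPM in the libraries labelled knockdown and 82.3, 92.3 and 85.4 CPM in the controls, the same order with knockdown 3 inside the control range. DNAJB11 averaged 144 ± 19.4 and 139 ± 7.23 CPM and DNAJC10, a reductase for misfolded clients, 235 ± 22.5 and 262 ± 16.2 CPM in the libraries labelled knockdown and in the controls, and neither passed.

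The small factors that accompany HSPA5 or are secreted during stress were negative in 3 of 3. CRELD2, a secreted stress-induced factor, had 40.8, 31.3 and 37.0 CPM in the libraries labelled knockdown and 47.1, 45.0 and 44.0 CPM in the controls, without overlap (log2 fold change -0.32, edgeR unadjusted p = 0.0606, adjusted p = 0.263). SDF2L1, a partner of DNAJB11, averaged 17.7 ± 2.17 and 20.9 ± 1.52 CPM and MANF, a secreted survival factor that binds HSPA5, 62.1 ± 6.58 and 67.7 ± 2.36 CPM in the libraries labelled knockdown and in the controls, with overlap in both.

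The sensors and their transcription factors were split. XBP1 had 153, 183 and 152 CPM in the libraries labelled knockdown and 149, 121 and 132 CPM in the controls. All 3 knockdown values were above all 3 controls, by little except in knockdown 2, and the test did not pass (log2 fold change 0.28, standard error 0.15, edgeR unadjusted p = 0.0924, adjusted p = 0.318). Without TMM factors, as CPM of the reads in genes, XBP1 had 145, 192 and 149 CPM in the libraries labelled knockdown and 151, 122 and 132 CPM in the controls, and the groups overlapped. Counts per gene do not separate spliced from unspliced XBP1, the form that reports IRE1 activity. ERN1 had 16.4, 22.0 and 14.5 CPM in the libraries labelled knockdown and 16.0, 14.4 and 15.5 CPM in the controls, apart from the controls mainly in knockdown 2 (log2 fold change 0.20, edgeR adjusted p = 0.589, and 0.0048 without knockdown 2). ATF6 had 165, 170.2 and 121 CPM in knockdown 1, 2 and 3, and 127, 124 and 134 CPM in the controls, above them in knockdown 1 and 2 and below them in knockdown 3 (log2 fold change 0.24, edgeR adjusted p = 0.416).

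Its paralog ATF6B lay on the other side and had 25.5, 52.7 and 60.1 CPM in the libraries labelled knockdown and 56.0, 67.5 and 75.4 CPM in the controls, with knockdown 1 far under the rest (log2 fold change -0.52, edgeR unadjusted p = 0.0794, adjusted p = 0.297, and -0.24 without knockdown 1). CREB3L2, a related membrane-bound factor of secretory cells, averaged 27.0 ± 4.94 CPM in the libraries labelled knockdown and 33.1 ± 2.27 CPM in the controls.

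**Figure D3:**
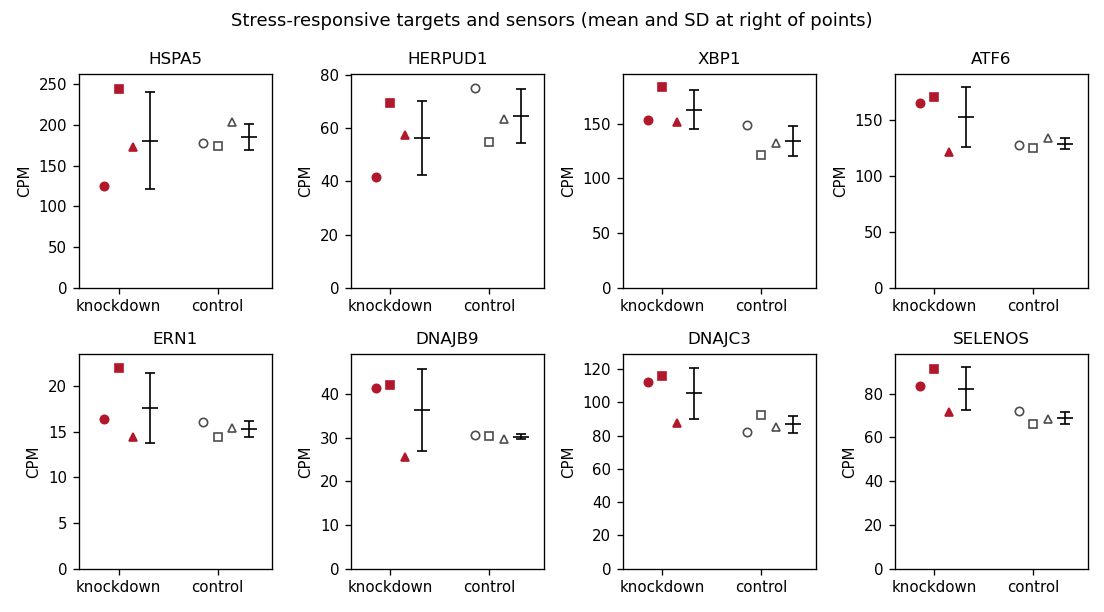
CPM in each library for HSPA5, HERPUD1, the sensors and factors XBP1, ATF6 and ERN1, and DNAJB9, DNAJC3 and SELENOS (symbols as in the plot of the 8 lower members; bars, mean and SD over 3 libraries). HSPA5 spans 125 to 244 CPM in the libraries labelled knockdown and 174 to 204 CPM in the controls, and for ATF6, DNAJB9 and DNAJC3 the knockdown triangle stands apart from the knockdown circle and square.

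The degradation factors were evenly divided, 5 positive and 5 negative, with a median log2 fold change of -0.0036 and 1 at an unadjusted p under 0.05. That one was EDEM2, which starts mannose trimming of misfolded glycoproteins and had 9.67, 8.98 and 13.5 CPM in the libraries labelled knockdown and 15.6, 15.1 and 16.4 CPM in the controls, without overlap (log2 fold change -0.55, standard error 0.20, edgeR unadjusted p = 0.0217, adjusted p = 0.175). Its relatives EDEM1 (57.3 ± 2.72 and 61.0 ± 0.886 CPM) and EDEM3 (88.5 ± 10.3 and 103 ± 3.51 CPM) overlapped between the libraries labelled knockdown and the controls. HERPUD1, a scaffold of the degradation complex that stress induces strongly, had 41.8, 69.5 and 57.4 CPM in the libraries labelled knockdown and 75.0, 55.0 and 63.6 CPM in the controls, which overlap widely (log2 fold change -0.20, edgeR adjusted p = 0.604). It was -0.027 without knockdown 1 and -0.39 without knockdown 2.

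SELENOS, which recruits the extraction ATPase VCP, had 83.5, 91.2 and 71.7 CPM in the libraries labelled knockdown and 71.8, 66.3 and 68.5 CPM in the controls, with knockdown 3 just inside the control range (log2 fold change 0.25, edgeR adjusted p = 0.343). The ligase SYVN1 and its partner SEL1L, the core of the degradation complex, stood at log2 fold changes of -0.07 (95% interval -0.55 to 0.41) and 0.07 (-0.25 to 0.39). Of the channel-like derlins, DERL1 and DERL2 averaged 82.9 ± 16.6 and 98.4 ± 11.9 CPM in the libraries labelled knockdown and 73.3 ± 8.10 and 94.2 ± 2.56 CPM in the controls. DERL3 had 19.7, 20.2 and 8.44 CPM in the libraries labelled knockdown and 13.3, 16.5 and 13.3 CPM in the controls, with knockdown 3 apart. Its value is uncertain, since SMARCB1 on the opposite strand shares 77.0% of its exonic length and the sources used here do not give the strand setting.

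At the way in and the way out of the reticulum, SEC24D, a cargo-binding subunit of the COPII vesicle coat, had 14.6, 16.9 and 21.8 CPM in the libraries labelled knockdown and 24.2, 28.3 and 23.8 CPM in the controls, without overlap (log2 fold change -0.52, standard error 0.19, edgeR unadjusted p = 0.0201, adjusted p = 0.168). SEC61B, a subunit of the translocation channel, averaged 36.8 ± 6.29 CPM in the libraries labelled knockdown and 41.2 ± 2.67 CPM in the controls, with overlap (edgeR adjusted p = 0.605).

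The members that were low and those that were high were not spread over the knockdown libraries in the same way. In knockdown 1, 2 and 3, 21, 21 and 22 members lay below all 3 controls (55.3%, 55.3% and 57.9%), against 38.5%, 39% and 31.7% of all genes. Above all 3 controls lay 12, 12 and 4 members (31.6%, 31.6% and 10.5%), against 37.6%, 38.4% and 30.6% of all genes. In 8 members, DNAJB9, DNAJB11, DNAJC3, ERN1, ATF6, DERL2, DERL3 and SELENOS, knockdown 1 and 2 were above every control and knockdown 3 was not (21.1%, against 10.5% of all genes). In 5 members, HSPA13, DNAJC10, ATF6B, CREB3L2 and EDEM3, knockdown 1 and 2 were below every control and knockdown 3 was not (13.2%, against 10.7% of all genes). By role, the median log2 difference from the control mean was -0.56, -0.38 and -0.20 for the HSP70 and HSP90 chaperones with SIL1 and -0.32, -0.23 and -0.19 for the isomerases and oxidases in knockdown 1, 2 and 3, against 0.26, 0.30 and -0.11 for the J-domain cochaperones.

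HSP90B1 and PDIA4 kept an unadjusted p under 0.05 in the lower direction in each of the 6 fits that left out 1 library. HYOU1, CALR and P4HB did not in the fits without a control or without knockdown 1. SIL1 lost it without control 3 (edgeR unadjusted p = 0.0553) or knockdown 1 (0.0539). SEC24D lost it without control 2 (edgeR unadjusted p = 0.0849) or knockdown 1 (0.0639). EDEM2 lost it without control 1 (edgeR unadjusted p = 0.0571), control 3 (0.0653), knockdown 1 (0.0568) or knockdown 2 (0.0547). Without control 1, 2 or 3 in turn, 4 members were lower each time (10.5%), against 7.33%, 5.6% and 7.58% of genes. In the same fits 0 were higher, against 6.65%, 4.96% and 7.03% of genes. Without knockdown 1, 3 members were lower, against 6.32% of genes, and 0 higher, against 6.08%. Without knockdown 2, 8 were lower (21.1%), against 11.2%, and without knockdown 3, 12 were lower (31.6%), against 16.4%. The adjusted test called 0 members in the first 5 of these fits, and 0.0212% of genes lower without control 3. Without knockdown 3, the adjusted edgeR test called 5 members lower (13.2%), against 8.3% of genes, and 0 higher, against 6.46%. These were SIL1 (adjusted p = 0.00731), EDEM2 (0.0229), SEC24D (0.0246), PDIA4 (0.038) and HSP90B1 (0.0476). In that fit 5 members were higher by unadjusted p (13.2%, against 14.7% of genes), namely DNAJB9, DNAJC3, ATF6, DERL3 and SELENOS. Without knockdown 2 the 2 higher members (5.26%, against 10.9% of genes) were PDIA3 and DERL1. Neither count exceeds the share of all genes, and the names are examples only.

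Set beside the promoter letters, the 11 members with an ERSE or ERSE-II match had log2 fold changes from -0.56 (HSP90B1) to 0.28 (XBP1), with 10 negative and a median of -0.22. The 23 members whose windows held neither ran from -0.65 (PDIA4) to 0.28 (DNAJC3), with 14 negative and a median of -0.12. PDIA3, DERL1, DERL3 and SEC24D had no window. The difference between both sets was not tested.

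Beyond the members, 132 other genes of the pathway were tested, from lists of textbook composition, and edgeR called 0 of them after adjustment, while DESeq2 called 2 higher (1.52%, against 3.39% of genes) and 5 lower (3.79%, against 3.55%). By unadjusted p, 9 were higher (6.82%, against 9.93% of all genes) and 18 lower (13.6%, against 10.6%), and the 20.5% called in either direction equals the share of all genes. In the PERK and ATF4 arm, which slows translation and induces stress genes, 11 of 12 genes were positive (91.7%, against 51.8% of all genes). By unadjusted p, 4 were higher (33.3%, against 9.93% of all genes) and 0 lower (against 10.6%). PPP1R15A, the phosphatase subunit that restores translation, had 272, 321 and 158 CPM in the libraries labelled knockdown and 158, 71.0 and 137 CPM in the controls (log2 fold change 1.04, with an adjusted p of 0.120 in edgeR and 0.0152 in DESeq2). Knockdown 3 was level with control 1. ATF3, a transcription factor induced by many stresses, had 137, 179 and 46.1 CPM in the libraries labelled knockdown and 55.5, 37.4 and 51.7 CPM in the controls. It was high in knockdown 1 and 2 and inside the control range in knockdown 3 (log2 fold change 1.32, edgeR adjusted p = 0.116, DESeq2 adjusted p = 0.132). EIF2S1, the translation factor subunit that PERK phosphorylates, averaged 325 ± 82.3 CPM in the libraries labelled knockdown and 211 ± 28.5 CPM in the controls. Its groups did not overlap (log2 fold change 0.63, edgeR adjusted p = 0.134, DESeq2 adjusted p = 0.0463).

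NUPR1 was the other higher gene, with 10.5, 24.9 and 13.5 CPM in the libraries labelled knockdown and 8.49, 4.67 and 12.0 CPM in the controls. Its groups overlapped (log2 fold change 0.96, edgeR adjusted p = 0.190, DESeq2 adjusted p = 0.0715). EIF2AK3, DDIT3 and ATF4 did not pass the unadjusted threshold. EIF2AK3, the gene of PERK itself, had 52.5, 70.7 and 54.3 CPM in the libraries labelled knockdown and 59.2, 58.2 and 55.9 CPM in the controls, which overlap. DDIT3, the stress factor CHOP, had 19.6, 32.5 and 33.8 CPM in the libraries labelled knockdown and 32.2, 24.2 and 40.0 CPM in the controls, which also overlap. ATF4 had 521, 475 and 449.5 CPM in the libraries labelled knockdown and 453, 305 and 381 CPM in the controls, which overlap (log2 fold change 0.34, edgeR adjusted p = 0.295). The stress targets CHAC1 and TRIB3 had log2 fold changes of 0.32 (95% interval -0.60 to 1.23) and 0.24 (-0.31 to 0.80).

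**Figure D4:**
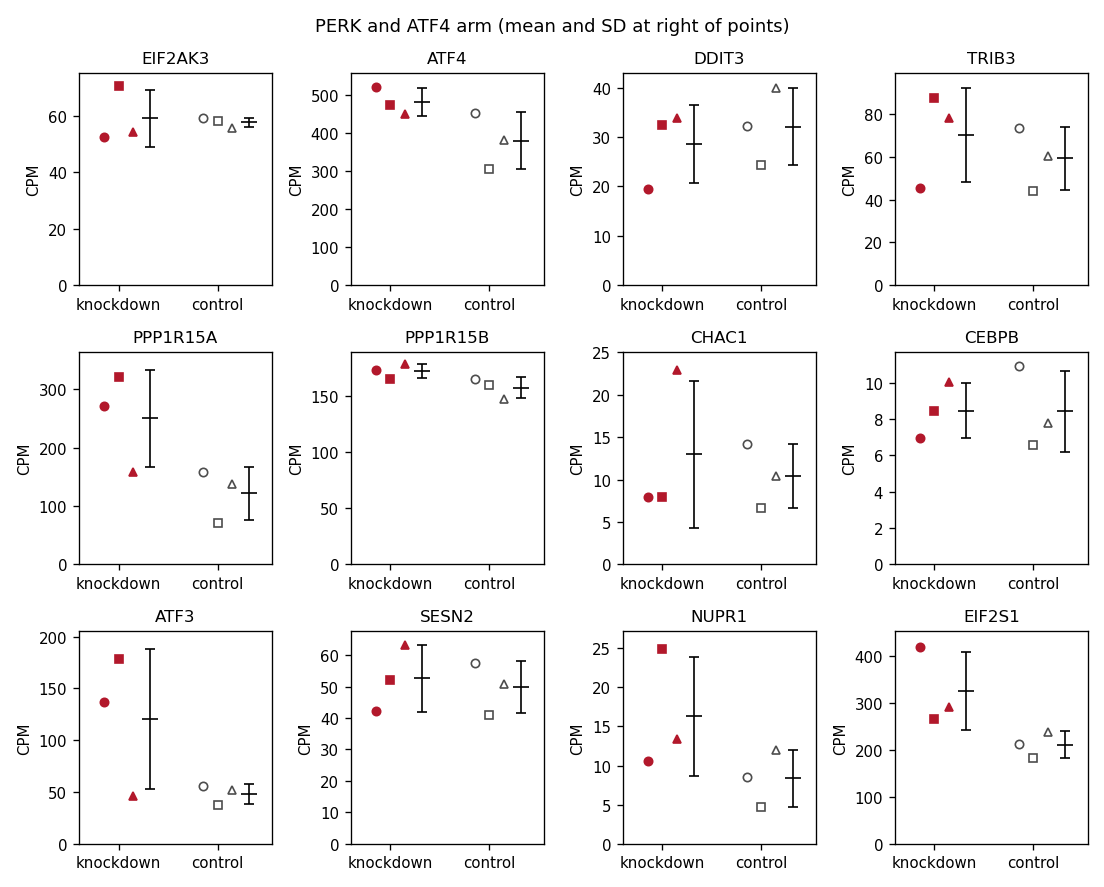
CPM in each library for the 12 genes of the PERK and ATF4 arm (red, libraries labelled knockdown; open grey, controls; circles, squares and triangles, replicates 1, 2 and 3; bars, mean and SD over 3 libraries). PPP1R15A and ATF3 are high in knockdown 1 and 2 and near the controls in knockdown 3. Only PPP1R15A (barely), PPP1R15B and EIF2S1 do not overlap between groups, and all other genes shown overlap, ATF3 included.

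In the other lists the shares called by unadjusted p in either direction ran from 13% to 25.8%, around the 20.5% of all genes, and the genes named below are examples rather than a result about the lists. In N-glycosylation and glucose trimming 0 of 15 genes were higher and 2 lower, GANAB, the catalytic subunit of glucosidase II that prepares glycans for calnexin and calreticulin, and RPN2, a subunit of the oligosaccharyltransferase. GANAB had 136, 147 and 175 CPM in the libraries labelled knockdown and 249, 292 and 244 CPM in the controls, all knockdown values far under the lowest control. Its log2 fold change was -0.78 with an SE of 0.16, and its adjusted p was 0.0767 with edgeR and 0.0016 with DESeq2. Among other folding enzymes 2 of 31 were higher and 6 lower, with the collagen chaperone FKBP10 at 69.3 ± 20.4 CPM in the libraries labelled knockdown and 115 ± 18.4 CPM in the controls. Among other degradation factors 0 of 20 were higher and 4 lower, including MAN1B1, a mannosidase that marks glycoproteins for disposal (22.8 ± 5.74 CPM in the libraries labelled knockdown and 38.3 ± 2.56 CPM in the controls). MBTPS1, a protease that cleaves ATF6 in the Golgi, was 1 of 3 lower among 14 tested genes of stress sensing. It had 156 ± 19.9 CPM in the libraries labelled knockdown and 214 ± 18.9 CPM in the controls (log2 fold change -0.46, edgeR adjusted p = 0.146).

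Translocation (13% called in either direction) and vesicle export (17.6%) lay below the 20.5% of all genes. Of 23 translocation genes 1 was higher and 2 lower: SEC62, a translocon partner, averaged 202 ± 27.7 CPM in the libraries labelled knockdown and 149.6 ± 5.11 CPM in the controls, and SEC61A2, a channel paralog, 17.5 ± 3.93 and 30.6 ± 1.88 CPM. The other lower one was SPCS1, a subunit of the signal peptidase complex, at 44.9 ± 13.8 CPM in the libraries labelled knockdown and 65.4 ± 2.87 CPM in the controls. Of 17 genes listed under vesicle export, which include receptors as well as the COPII coat, 2 were higher and 1 lower. In the libraries labelled knockdown and in the controls, the coat GTPases SAR1A (261 ± 65.3 and 189 ± 5.74 CPM) and SAR1B (163 ± 32.5 and 116 ± 2.10 CPM) were the higher ones. The lower one was KDELR3, a receptor that returns reticulum proteins (9.71 ± 3.24 and 17.9 ± 3.35 CPM).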

How the data were processed

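The authors deposited raw counts of reads for each Ensembl gene in 6 libraries. The submitters' processing notes name hg38, HTSeq, TopHat2 2.0.13 and bcl2fastq 2.18. Annotation release, strand setting and read filters: not given in the sources used here. Library preparation was stranded after Ribo-Zero Gold depletion, per the labels' protocols. The 5 rows that name no gene entered neither library sizes nor tests, and reads outside genes made up 21.5% to 37.5% of uniquely aligned reads. Symbols and exonic lengths came from GENCODE 29 (57055 identifiers matched).

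Counts were fitted with edgeR 4.0.16 in R 4.3.3 (TMM, filterByExpr, quasi-likelihood F test, two-sided). The code was run on counts simulated from this fit, with the same dispersions in both groups. That run cannot show whether the model suits these libraries, whose groups differ in spread. Intervals (95%) use the test's own degrees of freedom. DESeq2 1.42.0 and limma 3.58.1 (voom) were alternatives. All 38 members passed the filter. Replicates differed by more than sampling noise (chi-square per degree of freedom 11.6 to 75.3). Members and lists were chosen with earlier results of these data known. Named members are those at an unadjusted p of 0.05 or a DESeq2 adjusted p of 0.05 and 9 core members, with the most abundant of each role; values of other members were added after they were seen.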

Additional observations from a re-analysis of the deposited data

How the results depend on the processing

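Over 14 alternatives, 32 of 38 members kept the sign of their log2 fold change in every fit. HSPA5 turned to 0.0062 and MOCS2 to 0.0095 with upper-quartile factors. Members called lower at an adjusted p of 0.05, 0 in the fit reported, numbered 2 with DESeq2 and 1 with no filter. Other pathway genes numbered 2 higher and 5 lower with DESeq2, and 3 higher and 5 lower with no filter. Of all genes, DESeq2 called 3.39% higher and 3.55% lower, and the fit with no filter 1.605% higher and 2.035% lower. The median of the members, -0.16, was -0.14 with upper-quartile factors, -0.18 with library totals only and -0.18 with no filter, where the median of all genes was 0.12. Members above all controls numbered 1 with upper-quartile factors or library totals only, the second without XBP1. The share of all genes above all controls was 12.5% with TMM factors and was not counted with these 2 settings.

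Leaving out 1 library gave 0 to 5 members (adjusted, lower), against 0% to 8.3% of all genes. It gave 0 to 0 (adjusted, higher), against 0% to 6.46%. Unadjusted, members numbered 3 to 12 lower, against 5.6% to 16.4% of genes, and 0 to 5 higher, against 4.96% to 14.7%. Members without overlap numbered 11 to 17 (lower) and 2 to 10 (higher). A group cut to 2 libraries separates more easily, and the share of all genes without overlap was not counted in these fits. The median of all members ran from -0.19 to -0.12. Against the same called shares of all genes, other pathway genes numbered 0 to 11 (adjusted, lower) and 0 to 5 (adjusted, higher). By unadjusted p they numbered 8 to 29 lower and 3 to 17 higher. Log2 fold changes changed sign in MOCS2 (-0.094 to 0.027), HSPA5 (-0.32 to 0.17), DNAJB11 (-0.027 to 0.15), SEL1L (-0.0064 to 0.13), SYVN1 (-0.24 to 0.062), DERL2 (-0.029 to 0.14), DERL3 (-0.043 to 0.47), EIF2AK3 (-0.12 to 0.11) and DDIT3 (-0.34 to 0.042). Over 1.5-fold moves without 1 library occurred in 21 of 38 members and in 0 of the 8 with an unadjusted p under 0.05. The 8 were picked by p from the same data, and log2 fold changes near 0 pass this mark most easily. The contrast therefore does not measure how stable the 8 are. The cause of the moves was not tested. With the replicate block, 8 members were lower and 0 higher at an unadjusted p of 0.05, with ATF6B in place of P4HB, and 0 at an adjusted one. That fit called 10.98% of all genes lower and 8.277% higher unadjusted, and 0.07117% lower and 0.03285% higher adjusted. CALR missed the unadjusted threshold with DESeq2 size factors, upper-quartile factors or a filter of at least 1 CPM. HYOU1 (edgeR unadjusted p = 0.0631) and P4HB (0.0623) did so with no filter. Deviations of same-numbered libraries from their group means had r across genes of 0.11, -0.17 and -0.12. Those of unlike-numbered libraries had r from -0.077 to 0.19. With 3 libraries a group, these values cannot show whether the numbers pair libraries. With 3 libraries a group and this spread, the members' standard errors on the log2 scale ran from 0.13 to 0.30.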
